A study of Apis mellifera carnica with 38 samples.

Results

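In the fat bodies of honey bee queens, 100 genes stood at about the same level in untreated queens and in queens injected with saline diluent, and differed from the diluent in queens injected with ejaculate. They were chosen from the fat body values themselves. Each library's reads per gene were divided by its reads on all genes and expressed as CPM, counts scaled to the same total in every library, and log2(CPM+1) was averaged over the untreated, the diluent and the ejaculate libraries. Genes were kept with a mean of 5 CPM or more over the 20 fat body libraries and with diluent and untreated means less than 0.2 apart, and the 100 with the largest difference of ejaculate from diluent were taken, in either direction. Of the 12332 genes counted, 7484 met the floor and 4783 met the floor and the limit. Among the 100 genes, 23 rose with ejaculate and 77 fell.

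The fat body lines the abdominal wall of insects and does much of the work of a liver and an adipose tissue: it stores lipid, glycogen and protein, makes most hemolymph proteins, and takes part in detoxification and immunity. In bee queens it also makes the yolk protein vitellogenin, and its metabolism changes as a virgin queen becomes an egg layer. Seminal fluid is the part of semen without sperm, and in several insects its proteins act on the mated female.

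The queens were sisters of Apis mellifera carnica, reared from a source colony whose queen had been inseminated by a single drone, and all groups share that background. Virgin queens (V) were left untreated, and the others were injected into the body cavity of the abdomen with Hayes solution (HS), the saline used to dilute semen, with seminal fluid (SF), or with semen (SE). The ejaculate came from pooled drones of Apis mellifera ligustica, and the seminal fluid was the supernatant of semen diluted with Hayes solution, so it held diluent as well. EJ stands for SF and SE as 1 set of libraries. V queens had no needle wound, the queens were not mated, and whether an injection into the body cavity stands for mating cannot be read from these libraries. Each fat body group held 5 queens, and each library came from 1 queen. The samples were eviscerated abdominal cuticles lined with fat body, so cuticle, muscle and other cells were included, and in such bulk tissue fewer cells of a type and less RNA per cell cannot be told apart.

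The deposited table held 20 fat body and 18 brain libraries from 20 queens. Reads on genes ranged from 16332047 to 29963718 per fat body library in V, between 7869541 and 13212533 in HS, between 6525132 and 12391445 in SF, and between 4832119 and 12560312 in SE. The share of reads that did not align to the bee genome was 3.64% to 5.13% in V, against 53.4% to 68.4% in HS, 49.3% to 69.6% in SF and 54.2% to 71.6% in SE, so the injected groups overlapped and V stood apart. The study assigned many reads to Deformed Wing Virus, and found few or none of them in most virgin queens. V and the injected groups therefore also differed in virus reads. The summed level of 6 fat body marker genes, none of them at 0, was 41509 to 97538 CPM in V, 13169 to 37726 in HS, 14865 to 47897 in SF and 18043 to 35454 in SE. Summed levels of 7 muscle genes, 2 of them at 0, were 1948 to 2599 CPM in HS, 2000.0 to 2830.0 in SF and 1911 to 2998 in SE, and those of 6 nervous tissue genes were 426 to 543, 399.6 to 571 and 459 to 541 CPM. A set of 23 cuticle genes, 2 of them at 0, summed to 1430.2 to 1707 CPM in HS, 1299 to 1859 in SF and 1136 to 2225 in SE. The 4 ovary genes, 1 of them at 0, summed to 97.6 to 135 CPM in HS, 99.3 to 109 in SF and 86.1 to 115 in SE. The part of these shifts in the values below was not tested.

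The difference of EJ from HS, which chose the genes, had a median of 0.74 on the log2(CPM+1) scale for the 23 rising genes (0.58 to 1.25) and of -0.71 for the 77 falling genes (-2.24 to -0.56). The HS minus V difference, which the rule held near 0, had medians of 0.05 and -0.06. In all 100 genes SF and SE lay on the same side of HS. The rule took the largest differences of SF and SE pooled, which favours this, and both comparisons share the HS libraries. Nothing is therefore read from that count. The median difference was 0.74 for SF and 0.77 for SE among rising genes, and -0.70 for SF and -0.77 for SE among falling genes. Averaged over the 23 rising genes, log2(CPM+1) was 4.78 to 4.93 in the V libraries, 4.66 to 5.23 in HS, 5.52 to 5.83 in SF and 5.39 to 5.94 in SE. Over the 77 falling genes it was 6.02 to 6.36 in V, 5.89 to 6.43 in HS, 5.12 to 5.58 in SF and 5.196 to 5.61 in SE. Thus the averages of the EJ libraries did not overlap those of HS or V in either set, as the selection favours. HS queen H74 stood nearest to EJ in both sets, with the highest HS average of the rising genes and the lowest of the falling genes.

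**Figure D1:**
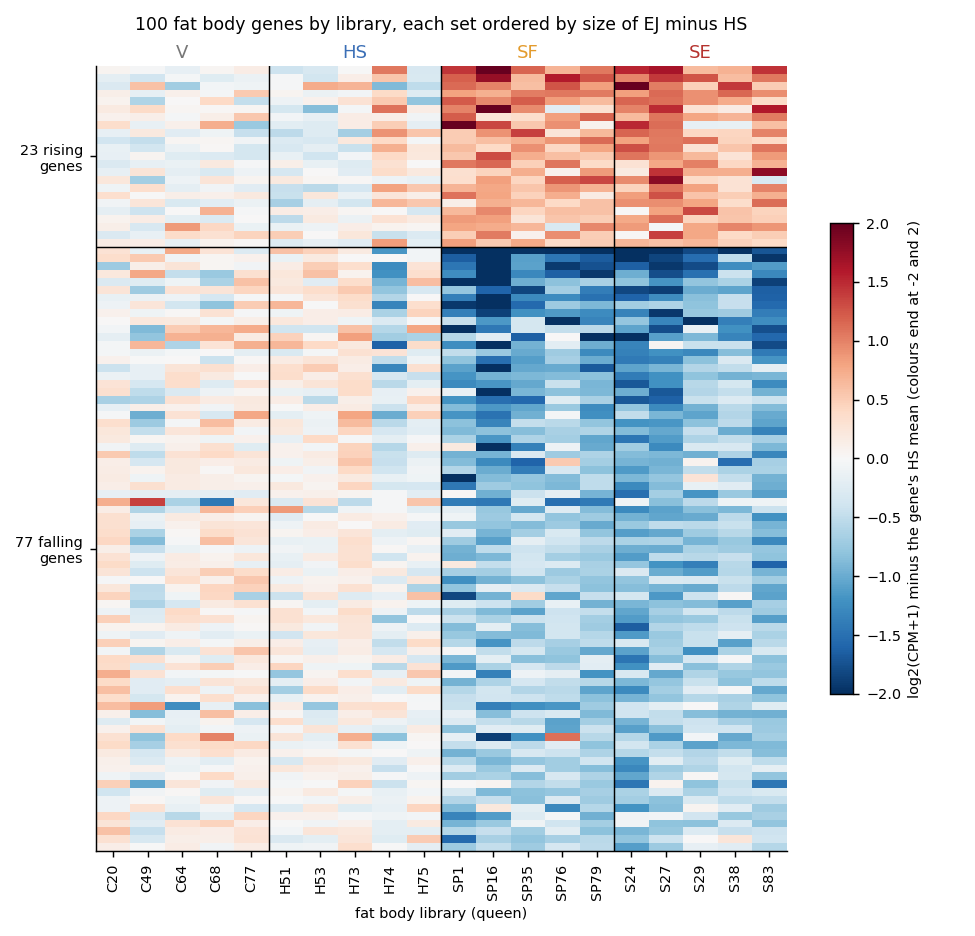
Each row is 1 of the 100 genes, ordered within the rising and the falling set by the size of EJ minus HS, and each column is 1 fat body library. Colour gives log2(CPM+1) minus the gene's HS mean, red above and blue below it. The V and HS columns are pale, the 10 EJ columns are red for the 23 rising and blue for the 77 falling genes, and HS queen H74 shows several rising genes in red and falling genes in blue.

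In single genes the separation was less complete. Of the 23 rising genes, 3 had all 10 EJ libraries above every HS library, and of the 77 falling genes 21 had all of them below. Over all genes of 5 CPM or more, 0.214% were higher without overlap and 1.46% lower, and since the rule used this contrast nothing is read from the difference. Without H74, chosen for this after its values were seen, 11 rising and 41 falling genes did not overlap, against 4.5% of genes of 5 CPM or more in either direction. HS and V libraries overlapped in all 100 genes, and EJ and V did not overlap in 10 rising and 27 falling genes. Over the same background 5.72% were higher and 4.85% lower, and among genes that met the floor and the limit 1.51% and 1.69%. The rule set HS near V and EJ far from HS, so nothing is read from these counts either. The last gene taken, LOC107964221, differed by -0.56 from HS to EJ, and the first one not taken, LOC113218833, by -0.56 as well. At the limit on HS minus V the nearest gene inside was LOC107965279 (-0.20) and the nearest outside LOC724126 (0.20), which had an EJ minus HS of 1.03. At the floor LOC102654894 was inside with 5.02 CPM and LOC726343 outside with 4.95 CPM. The limit alone kept out 220 genes whose EJ minus HS was as large as that of the last gene taken, and the floor alone kept out 35.

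The 100 genes depend on how libraries are scaled. With trimmed mean of M-values (TMM) scaling in place of reads on genes, the same rule would take 66 of the 100, and its choice would split into 47 rising and 53 falling genes in place of 23 and 77. All 100 genes kept the sign of EJ minus HS under TMM, and 73 of them still had HS and V less than 0.2 apart. Those that did not include LOC410801 (HS minus V -0.25) and LOC413575 (-0.26), the genes that fell most. LOC552286 (-0.27), LOC725489 (-0.24) and LOC413328 (-0.22), also described below, were beyond the limit as well. The median gene of 5 CPM or more lay at -0.05 for EJ minus HS with reads on genes as the scale and at 0.01 with TMM, and for HS minus V at 0.07 and at 0.00. Leaving out H74, 60 of the 100 would be taken, and leaving out V queen C49, 66. When each of the 20 libraries was left out in turn, 20 of the genes, 4 rising and 16 falling, were taken every time, and all 100 kept their sign.

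Some genes that handle sugar and lipid were among those that fell most. Genes listed by such names had EJ minus HS from -1.60 to 1.08 for sugar and from -1.80 to 0.71 for lipid. The names come from the study's own differentially expressed genes, so no shift of a whole pathway is read from them. LOC413575 (chromosome 1, 20451866 to 20473760 in Amel_HAv3.1), described as a facilitated trehalose transporter Tret1-like gene, belongs to the carriers that pass trehalose, the main blood sugar of insects, across the cell membrane. Its level was 231, 248, 256, 309 and 346 CPM in the V libraries and 219, 231, 243, 243 and 273 in the HS libraries. The SF libraries had 50.8, 75.6, 76.3, 87.7 and 113 CPM and the SE libraries 54.2, 61.7, 67.2, 83 and 169. The EJ libraries were all below the HS and V libraries, and the difference of EJ from HS was -1.60. LOC408564 (chromosome 16, 6635505 to 6644798) codes for long-chain fatty acid transport protein 4, of a family that takes up and activates fatty acids. It stood at 161, 253, 276, 289 and 321 CPM in the V libraries and 111, 297, 323, 339 and 376 in the HS libraries. In SF queens the values were 65.8, 70.04, 79.3, 97.8 and 126, and in SE queens 69.3, 76.9, 85.9, 112 and 123. All EJ values lay below V, but HS queen H74, at 111 CPM, was inside the EJ range, and EJ minus HS was -1.59.

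LOC726913 (chromosome 11, 12586489 to 12667091), a fatty acid desaturase 1-like gene, is of the enzymes that put double bonds into fatty acids. Its values were 333, 349, 357, 374 and 431 CPM in the V libraries and 227, 332, 386, 389 and 479 in the HS libraries. After ejaculate, SF queens had 96, 136, 147, 151 and 161 CPM and SE queens 91.7, 134, 139, 209 and 216. The groups did not overlap, with the lowest HS value in H74, and EJ minus HS was -1.29. LOC408871 (chromosome 6, 15330666 to 15336329), a sorbitol dehydrogenase that turns sorbitol into fructose, had 206, 503, 559, 608 and 723 CPM in HS, 75.9, 125, 155, 196 and 203 in SF and 139.6, 170.3, 195, 243 and 354 in SE, with 286, 344, 559, 599.6 and 824 in V. Its EJ libraries overlapped HS through H74 (206 CPM), and EJ minus HS was -1.47. LOC552286 (chromosome 12, 7849643 to 7872822) is described as acetyl-CoA carboxylase-like but is listed with fly pyruvate carboxylase as its homolog, so which of these carbon-fixing enzymes it codes for was not settled. It was at 499, 514, 547, 648 and 745 CPM in the V libraries and 423, 475, 533, 542 and 595 in the HS libraries. It was 218, 266, 287, 294 and 329 CPM in SF and 295, 315.003, 375, 408 and 417 in SE. All EJ libraries were below HS and V, by a smaller step (-0.70).

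Other genes of nutrient handling moved the same way or the opposite way. LOC100577943, a sensory neuron membrane protein 2-like gene of the CD36 family, whose members bind lipids, had 9 of 10 EJ libraries below every HS library and an EJ minus HS of -1.33 (HS 187, 276, 282, 334 and 365 CPM, SF 63.6, 99.1, 108, 115 and 118, SE 90.7, 92.1, 118, 158 and 205, V 222, 253, 259.7, 263 and 278). LOC410953, the homolog of fly Mondo, a sugar-sensing transcription factor, differed by -0.66. On the rising side LOC413263 (chromosome 8, 12603686 to 12610248), an inorganic phosphate cotransporter-like gene, was at 28.5, 31.5, 33, 35.8 and 44.8 CPM in HS and 30.5, 33.5, 36.8, 37.3 and 49.9 in V, and at 56.7, 60.7, 71, 71.4 and 72.5 in SF and 61.7, 65.8, 66.2, 76.2 and 77.5 in SE. Its EJ libraries were all above the others, with an EJ minus HS of 0.96. LOC413328, a phospholipid-transporting ATPase ID-like gene of the enzymes that flip lipids between membrane leaflets, had 9 of 10 EJ libraries above every HS library and an EJ minus HS of 0.71, with 17.2, 18.6, 18.8, 19.9 and 21.9 CPM in V, 12.4, 15.6, 18.7, 20.3 and 20.6 in HS, 19.4, 24.2, 29.1, 30.6 and 37.6 in SF and 24.7, 26, 28.9, 31.5 and 42.9 in SE. LOC724295, homolog of a fly subunit that directs protein phosphatase 1 to glycogen, differed by 0.73.

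**Figure D2:**
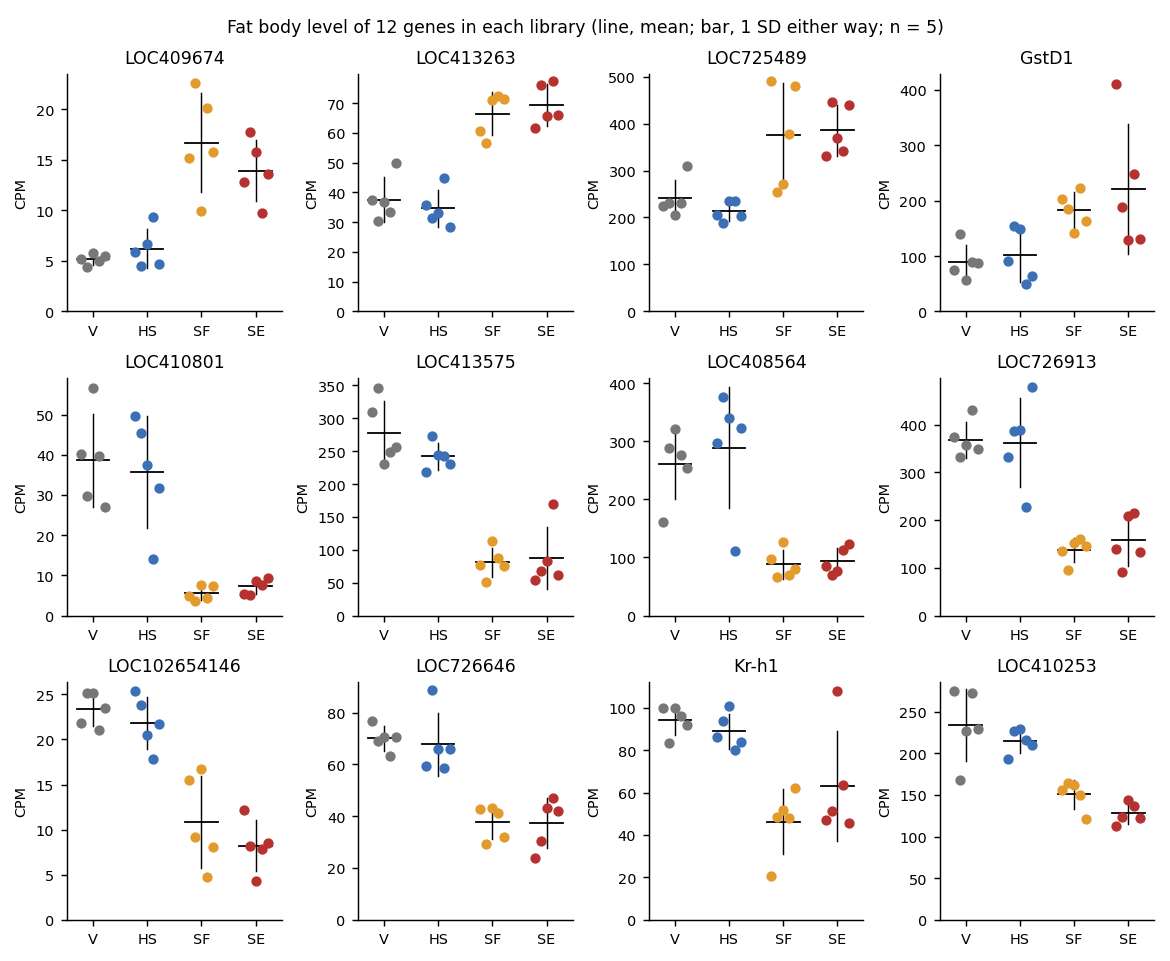
Fat body level in CPM of 12 of the genes, 1 point per library, with the group mean as a line and 1 SD either way as a bar (n = 5). In LOC409674, LOC413263 and LOC725489 all SF and SE points lie above HS, in LOC410801, LOC413575, LOC726913, LOC102654146, LOC726646 and LOC410253 all lie below HS, and in GstD1, LOC408564 and Kr-h1 some points overlap.

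The gene that fell most was LOC410801 (chromosome 2, 16003282 to 16024268), a cathepsin, from the cysteine peptidases of lysosomes. It stood at 27.1, 29.6, 39.8, 40.1 and 56.5 CPM in the V libraries and 14.1, 31.6, 37.5, 45.4 and 49.6 in the HS libraries. With ejaculate it was 3.63, 4.29, 4.97, 7.34 and 7.64 in the SF and 5.10, 5.38, 7.64, 8.68 and 9.36 in the SE libraries. All 10 EJ libraries were under the lowest HS value, 14.1 CPM in H74, and EJ minus HS was -2.24. LOC724616, neprilysin 5, is of the membrane metallopeptidases that cut signalling peptides. It was lower in every EJ library (13.4, 16.4, 17.1, 19.8 and 20.4 CPM in SF and 11, 12.4, 12.7, 15.1 and 18.4 in SE) than in HS (21.9, 22.3, 22.6, 24.3 and 29.97), while V, at 14.8, 30.1, 31.5, 31.6 and 32.5 CPM, overlapped EJ through C49. Its EJ minus HS was -0.61.

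Enzymes of oxidation and detoxification stood on both sides. LOC409674 (chromosome 15, 5238092 to 5250405), described as a peroxidase, which uses hydrogen peroxide to oxidise other compounds, rose in every EJ library. It was at 4.41, 4.93, 5.13, 5.47 and 5.81 CPM in the V libraries and 4.45, 4.70, 5.89, 6.66 and 9.36 in the HS libraries. The SF libraries had 9.89, 15.2, 15.8, 20.1 and 22.6 CPM and the SE libraries 9.71, 12.8, 13.5, 15.8 and 17.8. H74 had the highest HS value here too, and EJ minus HS was 1.17. GstD1 (gene ID 409490, chromosome 15, 9011536 to 9016677), a delta-class glutathione transferase that joins glutathione to foreign and oxidised compounds, was at 49.3, 64.6, 90.2, 148 and 155 CPM in HS, 141, 163, 184.5, 202 and 223 in SF and 128, 131, 188, 248 and 412 in SE, with 56.5, 74.9, 87.1, 88.6 and 139 in V. The groups overlapped, with SE queen S24 far above the rest, and EJ minus HS was 1.04. Of 11 glutathione transferase and antioxidant genes listed by symbol, 8 had 5 CPM or more, and GstD1 alone is among the 100. Their median EJ minus HS was -0.04, against -0.05 for all genes of 5 CPM or more.

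LOC725489 (chromosome 1, 13091754 to 13141406), a short-chain dehydrogenase/reductase SDR family member 11-like gene, was at 188.98, 202, 205, 234 and 236 CPM in HS against 255, 271, 377, 479.6 and 491 in SF and 331, 342, 369, 439.7 and 446 in SE. All EJ values exceeded HS, but V (206, 225, 231, 232 and 310.2 CPM) overlapped them through C77, and EJ minus HS was 0.80. On the falling side, LOC726646 (chromosome 1, 7918849 to 7923739), cytochrome P450 6BC1, of a family that oxidises toxins and other small molecules, was among the 20 genes taken whichever library was left out. Its level was 63.3, 69.1, 70.6, 70.8 and 76.7 CPM in the V libraries and 58.6, 59.5, 66, 66 and 88.7 in the HS libraries. In SF queens the values were 29.3, 32, 41.2, 42.7 and 43.4, and in SE queens 24, 30.4, 42, 43.1 and 47.2. EJ did not overlap HS or V, and EJ minus HS was -0.85. LOC724718, xanthine dehydrogenase, which makes uric acid, had 343, 358, 377, 389 and 394 CPM in V, 257, 322, 323, 372 and 448 in HS, 129.8, 169, 192, 226 and 272 in SF and 154, 179.5, 219, 219 and 239.6 in SE, with 9 of 10 EJ libraries under HS and an EJ minus HS of -0.79.

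Genes of adhesion, the extracellular matrix and the cytoskeleton also divided. LOC724950 (chromosome 1, 19467724 to 19472728), integrin beta-PS-like, and LOC107964400 (chromosome 5, 10705434 to 10710031), integrin alpha-8-like, code for subunits of the receptors that tie cells to the matrix, and both rose. LOC724950 was at 7.53, 8.37, 12, 12.6 and 16.1 CPM in the V libraries and 6.48, 11.1, 12.7, 14.8 and 17.7 in the HS libraries. After ejaculate, SF queens had 19.1, 22.1, 24.1, 29 and 29.5 CPM and SE queens 16, 20.6, 23.6, 26.8 and 27.9. In it 9 of 10 EJ libraries exceeded every HS library (EJ minus HS 0.91), and in LOC107964400, at 4.41, 5.36, 6.09, 6.24 and 10.7 CPM in V, 4.70, 6.24, 6.43, 6.91 and 6.99 in HS, 8.65, 9.82, 9.96, 10.3 and 13 in SF and 6.21, 8.82, 9.71, 11.6 and 16.9 in SE, also 9 of 10 (0.64). LOC413021 (chromosome 5, 5157589 to 5286950), papilin, a glycoprotein of the matrix, fell in every EJ library. Papilin was at 147, 156, 163, 164 and 169 CPM in the V libraries and 136, 142, 164, 203 and 209 in the HS libraries. It was 68.9, 83.4, 100.5, 103 and 119 CPM in SF and 62.6, 65.2, 68.4, 71.9 and 92.5 in SE. The EJ libraries lay below both HS and V, with an EJ minus HS of -1.03.

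LOC408761 (chromosome 3, 2882605 to 2924710), bifocal, whose fly namesake binds the actin cytoskeleton, had the largest rise of all (1.25). Its level was 17.9, 19.8, 20.6, 20.9 and 22.3 CPM in the V libraries and 14.8, 15.9, 16, 19.98 and 42.9 in the HS libraries. With ejaculate it was 32.6, 42.8, 46.5, 56 and 94.6 in the SF and 31.8, 33.3, 56.4, 59.6 and 65.4 in the SE libraries. The HS range reached that high through H74 alone, the other HS libraries being at or below 19.98 CPM, and EJ did not overlap V. LOC552804 (chromosome 11, 15555446 to 15567737), the homolog of fly mulet, a tubulin-folding cofactor E-like protein, fell (-1.37). It had 207, 406, 406, 412 and 457 CPM in V, 195, 269, 402, 430.2 and 486 in HS, 93.8, 111, 129, 197 and 209.96 in SF and 90.7, 95.4, 108, 163 and 169 in SE, and HS queen H74 and V queen C49 were its lowest samples outside EJ. A beta-tubulin gene, LOC408782, differed by 0.74.

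Regulators of transcription, named here after their values were seen, stood on both sides, most on the falling side, which also holds 77 of the 100 genes. Kr-h1 (gene ID 100576395, chromosome 6, 16501760 to 16510451), a zinc finger factor induced by juvenile hormone, had 83.4, 91.7, 96.1, 99.8 and 100.02 CPM in V and 80.2, 83.9, 86.3, 93.8 and 101 in HS. With ejaculate it had 20.9, 48.1, 48.3, 51.6 and 62.3 in SF and 45.6, 47, 51.3, 63.8 and 108 in SE. All EJ libraries but SE queen S29 (108 CPM) were below every HS library, and EJ minus HS was -0.79. It was the only one of 10 juvenile hormone and ecdysteroid genes listed by symbol that is among the 100. The 8 of them with 5 CPM or more had a median EJ minus HS of -0.33, against -0.05 for all genes of 5 CPM or more. Their values ran from -0.79 in Kr-h1 to 0.30 in vitellogenin (Vg), and no shift of a hormone pathway is read from the median.

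Of 3 clock genes listed, 2 are among the 100, which were taken from 7484 genes of 5 CPM or more. The third, Cry2, differed by 0.09 from HS to EJ, and nothing is read from a count over so short a list. Per (gene ID 406112, chromosome 12, 10032689 to 10051762), the clock repressor period, was at 95.7, 129.6, 129.6, 146 and 147 CPM in V, 97.2, 100.5, 104, 141 and 169 in HS, 40.1, 68.3, 74.6, 75.7 and 81.5 in SF and 68.7, 89.5, 89.9, 119.6 and 141 in SE. The SF values lay below HS, the SE values partly inside it, and EJ minus HS was -0.56, near the end of the list. Per was taken in only 10 of the 20 choices that left out 1 library. LOC410253 (chromosome 11, 13686610 to 13708311), vrille, a factor that represses Clock in the fly, was at 168, 226, 229, 272 and 275 CPM in V, 193, 209.9, 216, 226 and 229 in HS, 121, 150.3, 156, 161 and 165 in SF and 112, 122, 123, 137 and 144 in SE. Its EJ libraries did not overlap HS or V, and EJ minus HS was -0.63. LOC102654146 (chromosome 2, 346229 to 353976), transcription elongation regulator 1-like, was at 17.8, 20.4, 21.7, 23.8 and 25.3 CPM in HS, 21.1, 21.8, 23.5, 25.1 and 25.2 in V, 4.75, 8.09, 9.20, 15.5 and 16.7 in SF and 4.34, 7.80, 8.19, 8.55 and 12.2 in SE, again without overlap (-1.20). The corepressor groucho (LOC408890) differed by -0.71, Emc, an inhibitor of helix-loop-helix factors, by -0.71, and the homolog of fly Su(var)3-3, a histone demethylase (LOC726469), by -0.72. On the rising side stood LOC412770, a transcription factor E2F2-like gene (0.63), and LOC410973, Mediator subunit 22 (0.74).

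Among the remaining genes, Y-e3 (gene ID 413894), of the yellow family, had 17.7, 25.4, 31.7, 36.2 and 70.3 CPM in HS and 33.1, 33.6, 33.6, 36.9 and 42.9 in V against 28, 40.7, 63.8, 66.1 and 176 in SF and 36.5, 39.9, 66, 93.6 and 101 in SE, so EJ and HS overlapped widely although their log means differed by 0.90. It was the only one of 4 yellow genes listed that is among the 100. LOC726955, rhythmically expressed gene 2 protein-like, had 9 of 10 EJ libraries above HS (13, 14, 17.7, 19.2 and 19.2 CPM in V, 14.7, 15.3, 18.2, 21.6 and 25 in HS, 26.8, 28.6, 31, 35.1 and 42.2 in SF and 24.9, 25.7, 33.1, 39.5 and 40.9 in SE). LOC725483, gustatory receptor 3, whose fly homolog senses fructose, was at 10.3, 11.1, 11.1, 12 and 13.2 CPM in HS, 8.44, 9.55, 9.99, 11 and 11.7 in V, 5.81, 6.07, 6.28, 6.91 and 9.09 in SF and 7.04, 7.09, 8.60, 9.09 and 9.36 in SE. It was lower in each EJ library than in any HS library (-0.57), but was taken in only 10 of the 20 choices that left out 1 library. The homolog of fly glutamic acid decarboxylase 1, which makes GABA (LOC411771), also fell without overlap (-0.85). No description was available here for LOC410639, which fell by 1.47, for LOC102653899, which fell by 1.30, or for LOC100576935 and LOC550827, which rose by 0.80 and 0.77. LOC410639 was at 61, 99.2, 133, 149 and 179 CPM in HS, 7.15, 12.7, 58.9, 65.6 and 74 in SF and 31.3, 51.2, 66.2, 66.9 and 75 in SE (V 74.8, 94.8, 98.3, 110.1 and 176), and LOC102653899 at 33, 83.3, 104, 105.1 and 133, 5.25, 21.2, 27.8, 44.3 and 50.3 and 27.7, 47.3, 51.1, 54 and 60.6 (V 47.4, 64.3, 77.8, 99.3 and 119). LOC100576935 was at 6.75, 6.99, 7.12, 9.23 and 12 CPM in HS, 8.74, 12.4, 16.4, 22.2 and 41.1 in SF and 7.23, 7.32, 13, 19 and 25.2 in SE (V 4.52, 7.29, 8.94, 10.8 and 14.3), and LOC550827 at 434, 482, 577, 1021 and 1289, 827, 983, 1085, 1289 and 1789 and 919.8, 931, 1374, 1436 and 1559 (V 505, 591, 619, 649 and 790.4). In all 4 of them HS and EJ overlapped.

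Whether semen and seminal fluid differed in these genes is a comparison that the rule did not use, since it pooled the groups. No gene of the 100 passed the test between SE and SF fat bodies (edgeR's quasi-likelihood test, Benjamini-Hochberg adjusted p under 0.05). Over all 8201 genes tested 0 passed, so the background was 0%, and the smallest adjusted p among the 100 was 0.899. DESeq2 and limma-voom also gave 0 among the 100. At an unadjusted p under 0.05 there were 16 of the 100, all of them falling genes, against 5.34% of all genes tested. The median log2 fold change of SE against SF was -0.03 for rising and -0.08 for falling genes, and its median size was 0.20 over the 100 against 0.10 over all genes. The rule used these same libraries, and taking the largest differences favours variable genes. Nothing is therefore read from the larger size or from the 16 genes. Over the 100 genes the fold change ranged from -0.84 in LOC411253 to 0.76 in LOC552024. Esterase LOC410187, from a family that hydrolyses carboxylic esters, differed by -0.64 (standard error, s.e., 0.19, unadjusted p = 0.00392, edgeR). Its fat body level was 116, 133, 141, 145 and 145 CPM in HS, 69.3, 70.6, 99.8, 119 and 138 in SF and 46.8, 59.1, 63.1, 80.8 and 84.2 in SE, with 116, 119, 119, 119.9 and 121 in V, and only the SE libraries all lay below HS. Papilin differed by -0.47 (s.e. 0.16) and vrille by -0.32 (s.e. 0.10), both lower with semen, and Per by 0.50 (s.e. 0.20), higher with semen, all with the same adjusted p of 0.899. That adjusted p does not show that the 2 injections act alike.

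The same genes were then compared in brains, whose libraries had no part in the choice though they came from the same queens. Main values rest on the 11 injected brains that the study's methods keep (5 HS, 2 SF and 4 SE). The brains of SE queen S83 and SF queen SP16 were left out there for a low share of virus reads. Of the 97 genes that passed the filter in brains, 17 differed between EJ and HS (17.5%), against 5.96% of the 9030 genes tested, 2.89% higher and 3.07% lower (edgeR's quasi-likelihood test, Benjamini-Hochberg adjusted p under 0.05). Among the 17, 4 rising genes were higher with ejaculate in brains, 12 falling genes were lower and 1 falling gene was higher, so 16 went as in fat bodies. At an unadjusted p under 0.05 the shares were 36.1% and 25.1%. The log2 fold change had the same sign as in fat bodies in 74 of the 97, with medians of 0.17 for rising and -0.17 for falling genes and of 0.00 over all genes. These calls rest on leaving out S83 and SP16. With them, 0 of the 97 passed and 0 of 9004 genes, and at an unadjusted p under 0.05 there were 23 (23.7%) against 12.2%, with 22 of the 23 in the fat body direction. Without SF queen SP76, 9 of the 97 passed and 116 genes in all, and without HS queen H53, 11 and 188.

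**Figure D3:**
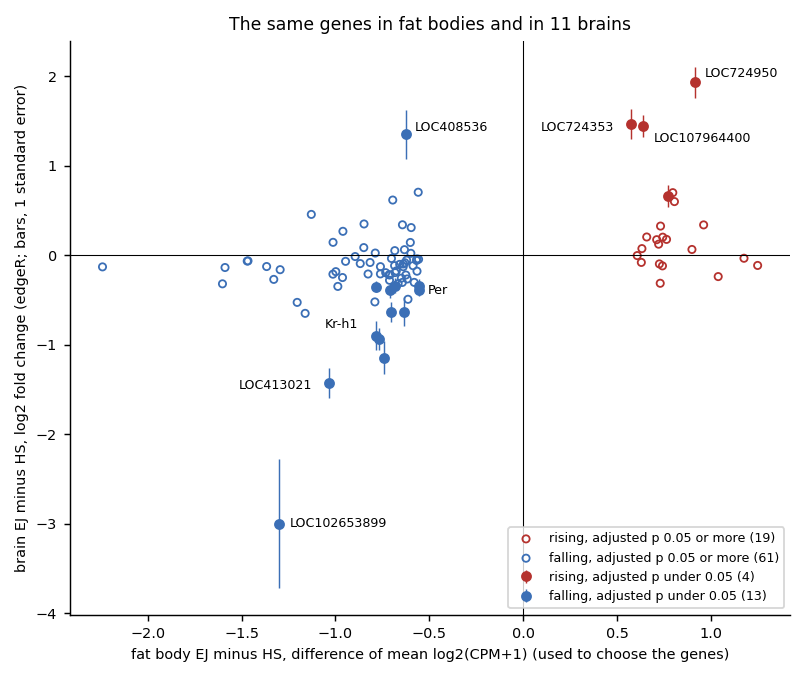
Each point is 1 of the 97 genes tested in brains. The x axis is fat body EJ minus HS on the log2(CPM+1) scale, which chose the genes, and the y axis is the brain log2 fold change of EJ against HS in 11 libraries. Filled points passed the test at an adjusted p under 0.05 and carry 1 standard error; 16 of the 17 lie below 0 for falling or above 0 for rising genes, and LOC408536, a falling gene, lies above 0.

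By adjusted p, though not by fold change, the 2 integrin genes came first among the 100 in brains. LOC724950 was at 9.73, 10.8, 16.2, 16.4 and 17.5 CPM in the HS brains, 58.3 and 64.1 in SF and 41.8, 41.9, 42 and 56.9 in SE, without overlap. Its log2 fold change was 1.93 (s.e. 0.17, edgeR adjusted p = 0.000322). LOC107964400 was at 7.36, 8.21, 8.31, 8.59 and 8.69 in HS, 18.8 and 25.9 in SF and 18.8, 20.3, 23.1 and 25.3 in SE, also without overlap, with a fold change of 1.44 (s.e. 0.12, edgeR adjusted p = 0.000206). The left-out brains did not share the rise: LOC724950 was at 10.8 CPM in S83 and 13.8 in SP16, and LOC107964400 at 7.26 and 10.02, which is within or near the HS range.

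Papilin fell in brains as in fat bodies. It was at 346, 359.6, 429, 430.4 and 502 CPM in HS, 172 and 209 in SF and 83.8, 104, 127 and 169.5 in SE, a log2 fold change of -1.43 (s.e. 0.17, edgeR adjusted p = 0.00167). Esterase LOC410187 was at 132, 137, 157, 169 and 175 in HS, 104 and 111 in SF and 47, 55.4, 56.6 and 77.3 in SE (-0.93, s.e. 0.12, edgeR adjusted p = 0.00311). The groups did not overlap in either gene, but S83 and SP16 were at 322 and 506 CPM for papilin and at 158 and 224 for the esterase, nearer to HS. LOC724353, described as a prion-like domain-bearing protein, had risen in fat bodies by 0.58, where it was at 14.6, 15, 15.2, 15.7 and 32.4 CPM in HS, 23.1, 25.6, 25.7, 30.7 and 32 in SF, 23.4, 24.8, 27.1, 28.5 and 28.6 in SE and 15.9, 18, 18.7, 19.4 and 19.8 in V, with H74 above all EJ libraries. In brains it was at 5.81, 6.41, 6.52, 8.09 and 11.5 in HS, 22.7 and 25.7 in SF and 15.6, 15.6, 18.7 and 21 in SE, without overlap (1.47, s.e. 0.17, edgeR adjusted p = 0.00167).

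Kr-h1 was at 75.6, 77.9, 79.3, 96.3 and 98.3 CPM in HS brains, 21.5 and 42.3 in SF and 55.1, 63.7, 66.2 and 71.3 in SE. It did not overlap and fell by 0.90 on the log2 scale (s.e. 0.16, edgeR adjusted p = 0.0140). Of the 9 juvenile hormone and ecdysteroid genes tested in brains, 4 were lower and 0 higher, Kr-h1 among them, against 3.07% lower and 2.89% higher over all genes, and as no gene passed once S83 and SP16 were added, these calls too rest on leaving them out. Per was at 106, 109, 111, 114 and 124 in HS, 66.4 and 75.4 in SF and 98.9, 99.3, 104 and 107 in SE, and fell by 0.39 (s.e. 0.06, edgeR adjusted p = 0.00925), with SE reaching into the HS range. Vrille, which had fallen in fat bodies, had a brain fold change of 0.06 (s.e. 0.08, edgeR adjusted p = 0.656).

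The other genes that passed in brains were the lower LOC409025, an apolipoprotein D-like lipid carrier, LOC411253, of the scavenger receptors of class C, Emc, LOC102654975, LOC107964221, LOC102653899, LOC100578157 and LOC102654964, and the higher LOC550827. In 11 fits that each left out 1 library, LOC107964221, LOC102653899, LOC100578157 and LOC102654964 passed only 4, 3, 2 and 1 times. EJ and HS brains overlapped in LOC107964221, LOC102653899 and LOC102654964. The exception in direction was LOC408536, listed with the fly Ance-5, an angiotensin-converting enzyme family member, which differed by -0.63 in fat bodies and was higher in brains by 1.35 (s.e. 0.27, edgeR adjusted p = 0.0221). LOC102653899 had the largest fold change, -3.0 (s.e. 0.72, edgeR adjusted p = 0.0375), at levels of only 0.418, 0.805, 1.64, 1.92 and 5.56 CPM in HS, 0.164 and 0.450 in SF and 0.0523, 0.0887, 0.213 and 0.546 in SE, which overlap. Most of the genes that led in fat bodies did not pass in brains. The cathepsin LOC410801 had a brain fold change of -0.13 (s.e. 0.09), LOC413575 of -0.32 (0.18), LOC408564 of -0.14 (0.09), bifocal of -0.11 (0.10) and peroxidase of -0.03 (0.08). Whether these genes differ between the tissues in their response was not tested.

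**Figure D4:**
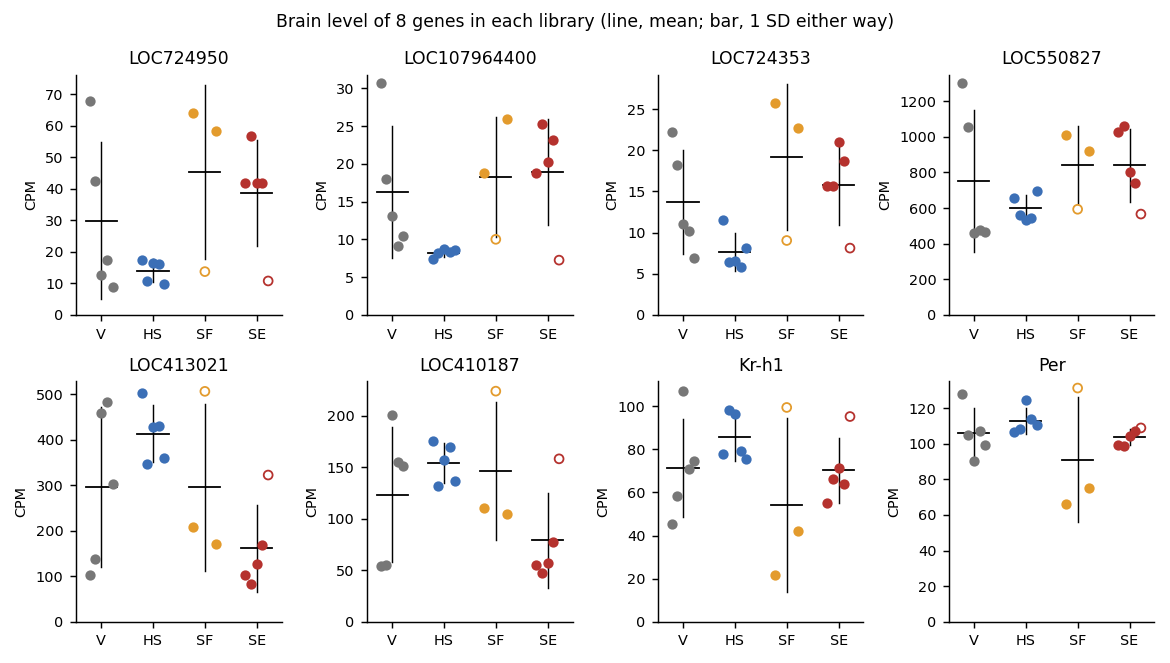
Brain level in CPM of 8 of the genes, 1 point per library, with the group mean as a line and 1 SD either way as a bar over 5 V, 5 HS, 3 SF and 5 SE libraries. Open points are S83 and SP16, which were left out of the main brain test but are in the means. The open points lie near HS in most panels, and V brains C20 and C49 lie on the EJ side of all HS points in every panel but Per.

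Untreated brains varied in the same genes. V queens C20 and C49 were at 103 and 139 CPM for papilin, where C64, C68 and C77 were at 459, 483 and 302. For LOC724950 they were at 67.9 and 42.4 against 12.8, 17.3 and 8.998. In both genes C20 and C49 lay close to the EJ brains and the other V brains close to HS. Unaligned reads made up 34.3% of the library in C20 and 25.1% in C49, and 4.24% to 5.37% in the other V brains. It was 4.05% in S83 and 6.08% in SP16, 28.2% to 39.7% in the 6 EJ brains tested and 22.1% to 53.6% in the HS brains. The low-share brains S83, SP16, C64, C68 and C77 lay close to HS in papilin and LOC724950, and the high-share HS brains differed from C20 and C49. The part of this share in the EJ minus HS values was not tested. The summed level of the 6 fat body marker genes, none at 0, was 8921 to 10063 CPM in the 2 SF brains tested, 397 to 1333 in the 4 SE brains and 1171 to 8576 in the HS brains, and the 7 muscle genes summed to 130.3 to 707, 24.1 to 62.7 and 30.5 to 327 CPM. Their part in the brain values was not tested either.

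Levels in the brains and fat bodies of untreated queens are given as a description, because the V fat bodies were among the libraries that chose the genes. Between the 5 V brains and the 5 V fat bodies 84 of the 100 genes differed, against 81.3% of all genes tested. Of the 77 falling genes 59 were lower in brain (76.6%) and 8 higher. Of the 23 rising genes 8 were lower and 9 higher (edgeR's quasi-likelihood test, Benjamini-Hochberg adjusted p under 0.05). Among all 9082 genes tested 40.9% were lower and 40.3% higher, and among the genes that met the floor and the limit 44.9% and 35.9%. Falling genes were chosen for fat body levels that were high in V and HS relative to EJ, and the floor was on fat body CPM, both of which favour lower in brain, so nothing is read from these counts. The median log2 fold change of brain against fat body was -1.19 for falling and 0.08 for rising genes, and -0.09 among genes that met the floor and the limit. Scaled by library size alone, the median of all genes moved to 0.50, and then 47 falling genes were lower and 12 higher, and 5 rising genes were lower and 13 higher. With the queen as a block 61 and 7 falling genes were lower and higher.

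**Figure D5:**
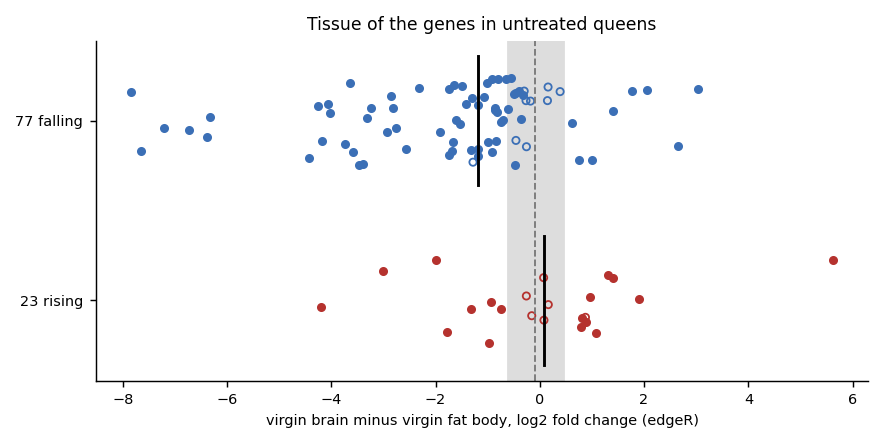
Log2 fold change of virgin brain against virgin fat body for the 23 rising and 77 falling genes, 1 point per gene, filled where the adjusted p was under 0.05. Black lines are the set medians (0.08 and -1.19), and the grey band and dashed line give the quartiles and the median (-0.09) of the genes that met the floor and the limit; most falling points lie left of the band.

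The genes furthest toward the fat body were LOC552366, with 75, 79.4, 83.3, 84.3 and 107 CPM in V fat bodies and 0.365, 0.372, 0.531, 0.560 and 0.750 in V brains, LOC107965279, with 54.7, 82.3, 102, 135 and 139 and 0.387, 0.531, 0.531, 0.971 and 1.15, and LOC410639. Their log2 fold changes were -7.84 (s.e. 0.18), -7.65 (s.e. 0.36) and -7.21 (s.e. 0.37). In injected fat bodies LOC552366 was at 54.1, 68.5, 84.2, 84.5 and 101 CPM in HS, 33.2, 47.8, 51.2, 52.9 and 53.7 in SF and 35.5, 47.1, 52.3, 55.8 and 61.7 in SE, and LOC107965279 at 26.8, 96.9, 109, 112 and 135, 7.51, 35.3, 42.7, 43.7 and 73.3 and 23.7, 33.3, 61.6, 61.8 and 87.3. LOC552366 and LOC107965279 were too low in brains to be tested there for ejaculate. Furthest toward the brain was the peroxidase LOC409674, at 282, 368, 369.8, 392 and 405 CPM in V brains, a log2 fold change of 5.63 (s.e. 0.14). Then came the falling genes LOC725803 (3.04, s.e. 0.40) and LOC725800 (2.64, s.e. 0.22), neither of them described here. In fat bodies LOC725803 was at 4.31, 6.01, 10.3, 18.3 and 21.5 CPM in V, 6.37, 11.3, 13, 14.7 and 14.8 in HS, 3.87, 4.38, 4.60, 6.69 and 8.24 in SF and 7.32, 8.69, 9.62, 9.996 and 11.7 in SE. LOC725800 was at 9.49, 11.7, 16.7, 21.1 and 24.3, 9.90, 12.8, 14.2, 14.6 and 27.6, 6.85, 7.77, 8.39, 12.3 and 12.9 and 5.59, 6.59, 7.56, 7.95 and 10.9. Both overlapped between EJ and HS and between EJ and V.

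Biotype and gene length were not used by the rule. All 23 rising genes were annotated as protein-coding, and 71 of the 77 falling genes, the other 6 being long noncoding RNAs (7.79%), against 1.67% of the genes that met the floor and the limit. Their median gene length, introns included, was 6396 bases for rising and 11379 for falling genes, and 3983 among genes that met the floor and the limit. Reads in introns could be counted, and their part in the levels of long genes was not tested. The median SD of log2(CPM+1) over the 5 V fat bodies was 0.22 for rising and 0.27 for falling genes against 0.13, from libraries that the rule used, and taking the largest differences favours variable genes. After the group means were removed, pairs of falling genes correlated over the 20 fat body libraries with a median r of 0.21, pairs of rising genes with 0.14 and a rising with a falling gene with -0.12, where pairs among the genes that met the floor and the limit had a median of 0.18. The rule used these libraries and the pairs share depth, so the values are a description.

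The genes lay on all 16 chromosomes, with 12 on chromosome 8. There were 13 pairs within 50 kb of each other. These counts are not set against those of all genes, so no clustering is read from them. On chromosome 3, LOC410973 and bifocal, both rising, were 956 bases apart. On chromosome 8, the rising LOC413263 and the falling LOC551863 were 1680 bases apart, so neighbours did not always move together. Papilin and LOC551897, 24703 bases apart on chromosome 5, both fell. Of the 100, 45 overlap another annotated gene, a count also not set against all genes. Among them are the cathepsin LOC410801, the desaturase LOC726913, bifocal, papilin, LOC107964400, LOC724353 and vrille. Since the strand setting of the counts was not given in the sources used here, reads of such genes and of their overlapping partners may not be told apart.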

How the data were processed

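RNA of single queens' brains and fat bodies was sequenced as 100 bp single-end reads. The authors trimmed reads with cutadapt 1.8.3, aligned them to Amel_HAv3.1 with HISAT2 2.1.0 and counted them per gene with HTSeq 0.9.1, and the deposited counts are raw reads per gene. The counting took whole genes as its features, so reads in introns could be counted too. Reads assigned to no gene were left out of library sizes. The share given as not aligned is that of unaligned reads alone among all reads, without ambiguous or other unassigned reads. All 12332 gene IDs matched the RefSeq annotation of Amel_HAv3.1. Names and fly homologs came from the study's supplementary sheets of its own differentially expressed genes and cover 59 of the 100, so lists made from names are not a full list of a pathway, and the lists quoted with counts were made from gene symbols after the table was seen. The 100 genes and all lists were chosen with earlier results of these data known.

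Tests used edgeR 4.0.16 in R 4.3.3 (TMM, filterByExpr with a minimum count of 20, quasi-likelihood test, Benjamini-Hochberg over all genes tested, threshold 0.05). SE against SF was fitted in 15 injected fat bodies, EJ (mean of SF and SE) against HS in 11 brains, and brain against fat body in 10 virgin libraries. No fat body contrast with HS or V was tested, since the rule used them. Brain against fat body shares the V fat bodies with the rule and is a description. Alternatives were DESeq2 1.42.0, limma-voom (limma 3.58.1), other scaling and filters, each library left out, the sequencing lane, 13 or 18 brain libraries, and the queen as a block. Brain and fat body of 1 queen are paired by the queen in the labels, and over the 5 V queens their deviations correlated between -0.10 and 0.15. Genes named are the 10 largest in each direction, the 5 of smallest p in brains, the 3 furthest each way between virgin tissues, those nearest each threshold, and up to 4 of each list. The other genes named were chosen after their values were seen. Depth limits precision most in the SE library with 4832119 reads on genes. The steps were tested on simulated data. Columns of no other series were found.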

Additional observations from a re-analysis of the deposited data

Results flagged for a closer look

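In 28 of the genes each of the 4 fat body groups was tested for 1 library far from the other 4 (Dixon's ratio above 0.71), in 112 groups, of which chance flags about 1 in 20, and 8 were found. HS queen H74 was high in bifocal (LOC408761), at 42.9 CPM where the other HS libraries had 14.8 to 20.0 CPM, and in LOC724353, at 32.4 CPM against 14.6 to 15.7 CPM. HS queen H51 had 27.6 CPM of LOC725800 against 9.90 to 14.6 CPM. SF queen SP16 had 176 CPM of Y-e3 against 28 to 66.1 CPM, and 33.2 CPM of LOC552366 against 47.8 to 53.7 CPM. SE queen S38 had 169 CPM of the trehalose transporter gene LOC413575 against 54.2 to 83 CPM. Among V queens, C77 had 310.2 CPM of LOC725489 against 206 to 232 CPM, and C49 had 207 CPM of LOC552804 against 406 to 457 CPM.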

How the results depend on the processing

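The choice of the 100 genes moved with the settings: the rule took 66 of them under TMM scaling (47 rising, 53 falling), 48 with a limit of 0.1 on HS minus V, and 60 to 95 when each library was left out, with 17 to 28 rising genes in those choices. A limit of 0.3 took 74, a floor of 1 CPM 76, a pseudocount of 0.25 91 and the sequencing lane in the model 74. Members whose EJ and HS libraries did not overlap numbered 24, and 24 to 52 when each HS library was left out, 52 of them without H74 (added after the data were seen). In brains 17 of the 100 and 538 genes passed in 11 libraries, 0 and 0 in 13 libraries, and 0 and 1 in 18 libraries. DESeq2 gave 23 and 1002, SF and SE as 1 group gave 12 and 215, and each library left out gave 9 to 19 and 116 to 585, the fewest without SF queen SP76. Only 2 SF brains were tested, and the cause of these moves was not tested. SE against SF in fat bodies gave 0 of the 100 under every alternative that was run. Between virgin tissues 84 passed, and 83 with the queen as replicate block (14 higher and 69 lower in brain), which moved no count by over 1.5 times. Gustatory receptor 3 (LOC725483) turned from -0.36 to 0.15 with library sizes alone. Low counts limit LOC102653899 and other genes near 1 CPM in brains.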
